A study of Mus musculus with 2 samples.

Results

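Mir137, Mir153 and Mir551b are microRNA (miRNA) genes of the mouse brain that each stand alone in the annotation. Many other neuronal miRNAs are made from several hairpins that share a mature sequence. The rows of Mir137, Mir153 and Mir551b were found by gene symbol in GENCODE M21. They make up 3 of the 2202 miRNA genes in the count tables. The counts come from small RNA sequencing of total RNA from the hippocampus of female B6CASTF1/J mice, hybrids of the C57BL/6J and CAST/EiJ strains, at 36 days of age. There is 1 group of 2 libraries, labelled biological replicates 2 and 1, with no treatment, genotype or age set against another. The labels point both libraries to a single donor entry under different biosample entries, so whether they are separate animals is not given, and their spread may be technical in part. All levels are in CPM, which are sense reads of a gene per 1000000 sense reads on all miRNA genes.

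A miRNA gene is transcribed into a hairpin, which is cut into a short duplex. A strand from its 5′ side (5p) or its 3′ side (3p) is loaded into an Argonaute protein and pairs with messenger RNAs mainly through its seed, bases 2 to 8, which lowers their translation and stability. miR-137 is known from neural stem cells and maturing neurons, where it represses the chromatin enzyme Ezh2, and its human locus is among those linked to schizophrenia risk. miR-153 is known to repress Snap25, a protein of synaptic vesicle fusion, and α-synuclein. Less is known of miR-551b in the brain.

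The mature products of the 3 hairpins are shown because the seed decides which messages each can bind and because their uniqueness decides how reads can be assigned. Capitals mark the seed. The sequences are from RefSeq on GRCm38.p6.
mmu-miR-137-5p: aCGGGUAUucuuggguggauaau
mmu-miR-137-3p: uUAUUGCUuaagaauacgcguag
mmu-miR-153-5p: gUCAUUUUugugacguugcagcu
mmu-miR-153-3p: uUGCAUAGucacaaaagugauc
mmu-miR-551b-5p: gAAAUCAAgcuugggugagaccu
mmu-miR-551b-3p: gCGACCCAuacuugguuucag

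No seed is shared among these 6 products, and no other mature mouse miRNA in the RefSeq table has the same bases 2 to 8 as any of them. When only bases 2 to 7 were compared, 5 of the 6 still had no relative. The exception was miR-153-3p, which shares these bases with the products of 2 other genes, Mir448 and Mir6335. The products of the 3 genes also have little sequence in common outside the seed. The longest run shared between products of different genes is 8 bases, at positions 10 to 17 of both miR-137-5p and miR-551b-5p.

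The hairpins of Mir137 and Mir153 are shown next, to place the 5p and 3p products, which are in capitals.
Mir137: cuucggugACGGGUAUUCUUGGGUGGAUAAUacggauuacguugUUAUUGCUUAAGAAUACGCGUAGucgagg
Mir153: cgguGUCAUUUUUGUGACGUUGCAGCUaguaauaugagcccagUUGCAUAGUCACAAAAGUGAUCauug

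Mir137 has 73 bases, Mir153 69 and Mir551b 98. Folded with RNAfold, they reached minimum free energies of -31.2, -30.8 and -44.1 kcal/mol, with 30, 27 and 33 base pairs. Per base these are -0.43, -0.45 and -0.45 kcal/mol, close to the median of -0.44 over the 376 genes with at least 10 reads in each library, so the 3 hairpins are of ordinary stability. The GC content was 45.2% for Mir137 and 42.03% for Mir153, below the median of 51.8% over those genes, and 52.0% for Mir551b. Counts were made per hairpin gene, so the 5p and 3p products could not be told apart in any value given here.

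**Figure D1:**
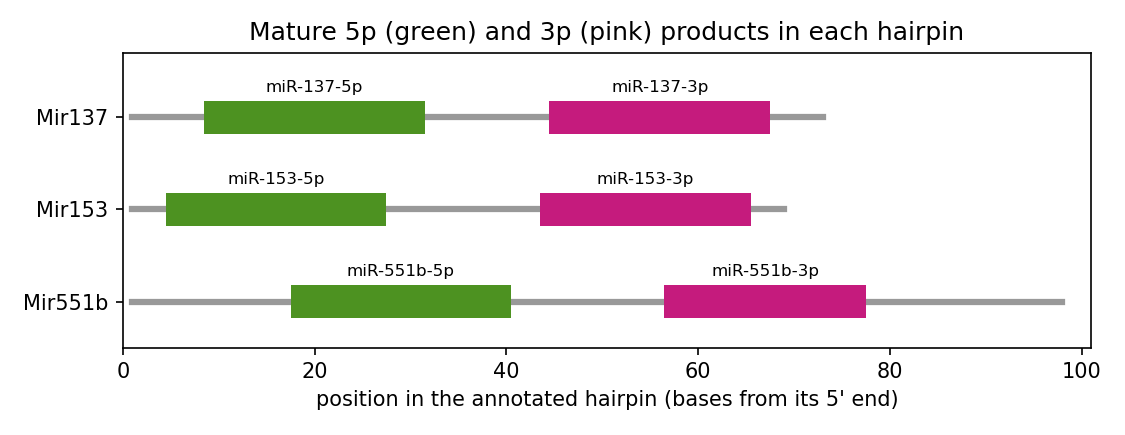
Position of the mature products in the annotated hairpins of Mir137, Mir153 and Mir551b, in bases from the hairpin's 5′ end. The 5p product (green) and the 3p product (pink) lie on opposite sides of the loop in each of the hairpins, which are 73, 69 and 98 bases long.

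The genes lie at separate loci of the mm10 assembly, all on the plus strand and in the orientation of the gene around them. Mir137 (ENSMUSG00000065569.2) is at chr3:118433857-118433929, within an exon of the noncoding gene Gm26871 in both annotated transcripts that span it. Mir153 (ENSMUSG00000065538.1) is at chr12:117250817-117250885, in an intron of Ptprn2 in both transcripts that span it. Ptprn2 encodes a phosphatase-like membrane protein of secretory vesicles. Its intron also overlaps an intron of Gm5441 on the opposite strand. Mir551b (ENSMUSG00000076120.1) is at chr3:29416823-29416920, in an intron of Egfem1 in all 4 spanning transcripts. Egfem1 encodes a protein with EGF-like and EMI domains. Only miRNA gene rows were counted, so the levels of these host genes were not analysed here.

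The nearest annotated miRNA genes had few or no reads. The annotated miRNA gene closest to Mir137 is the predicted gene Gm24155, 791 bases downstream in the same host. It had 1 read in replicate 2 and 5 reads in replicate 1, against 46028 and 26682 reads for Mir137. On the other side, Gm24811 lies 585 kb away and had 0 reads in both libraries. Mir153 has 1 annotated miRNA neighbour, Gm23190, 1008 kb upstream, also with 0 reads. The neighbours of Mir551b are Mir21b, 220 kb downstream with 0 reads, and Mir466q, 997 kb upstream with 5 reads in replicate 2 and 3 in replicate 1. For a gene whose reads have 1 place, a count of 0 allows up to 3 reads, equal to 0.823 CPM in replicate 2 and, at the lower depth of replicate 1, to 1.02 CPM. This limit and all intervals below cover counting error only.

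The description of the genes as single-copy was checked by searching each mature sequence, on both strands, in 141767 annotated transcripts. Outside its own hairpin, a mature sequence of Mir137 was found only in the host transcripts of Gm26871, and those of Mir153 and Mir551b were found nowhere else. None of the 3 hairpins shares a stretch of 20 bases with another annotated miRNA hairpin, as is true of 278 of the 376 genes with at least 10 reads in each library. Genome sequence outside annotated transcripts was not searched. By contrast, all 8 of the neuronal paralogs from the mir-128, mir-129, mir-138 and mir-218 families share such a stretch and have a mature product that is identical in another miRNA gene. Whether the 3 genes are neuronal in this tissue could not be checked, because the libraries hold RNA of all cells together. In such bulk RNA, fewer cells of a type and less RNA per cell cannot be told apart.

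Replicate 2 had 3644157 sense reads on miRNA genes and replicate 1 had 2928141, which were 34.7% and 30.5% of all reads in their tables. Reads with several places in the genome were 45.8% and 38.9% and were not assigned to any gene. The libraries were not copies of each other, since a chi-square over genes was 390 times its degrees of freedom.

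Mir137 was by far the most abundant of the 3 genes and one of the leading miRNA genes by assigned reads. Genes whose reads have several places lose them here, so all ranks describe assigned reads only. Its 46028 reads in replicate 2 were 12631 CPM (exact Clopper-Pearson 95% interval 12516 to 12746). Its 26682 reads in replicate 1 were 9112 CPM (9004 to 9222). The mean was 10871 ± 2488 CPM (SD, n = 2), which placed it 18th of the 2202 genes, at rank 14 in replicate 2 and rank 20 in replicate 1. This hairpin thus gave 1.26% (replicate 2) and 0.911% (replicate 1) of what was assigned.

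The rank of Mir137 was not fixed by these libraries. Its range from 9112 to 12631 CPM overlapped the ranges of 14 other genes, with mean ranks from 11 to 28. Directly above it in the mean was Mir433, with 12999 CPM in replicate 2 and 8868 CPM in replicate 1. Directly below was Mir324, with 11043 and 9065 CPM in the same libraries. Neither neighbour differed from Mir137 by more than the spread between libraries.

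Mir153 was of intermediate abundance. It had 2772 reads in replicate 2, or 761 CPM (interval 733 to 790), and 1501 reads in replicate 1, or 513 CPM (487 to 539). The mean of 637 ± 175 CPM (SD, n = 2) gave it rank 120, with rank 112 in replicate 2 and 132 in replicate 1. Ranges of 36 other genes overlapped its own, among them Mir101b and Mir666, directly above and below it. By assigned reads it is thus an expressed but not a leading miRNA gene in these samples.

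Mir551b was low but well above the limit of detection. It had 199 reads in replicate 2, which is 54.6 CPM (47.3 to 62.7), and 139 reads in replicate 1, which is 47.5 CPM (39.9 to 56.05). The mean of 51.04 ± 5.05 CPM (SD, n = 2) placed it at rank 233, still above 38.3% of the 376 genes with at least 10 reads in each library. Of the 3 genes it had the smallest relative spread, with an SD of 9.89% of the mean, against 22.9% for Mir137 and 27.6% for Mir153.

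**Figure D2:**
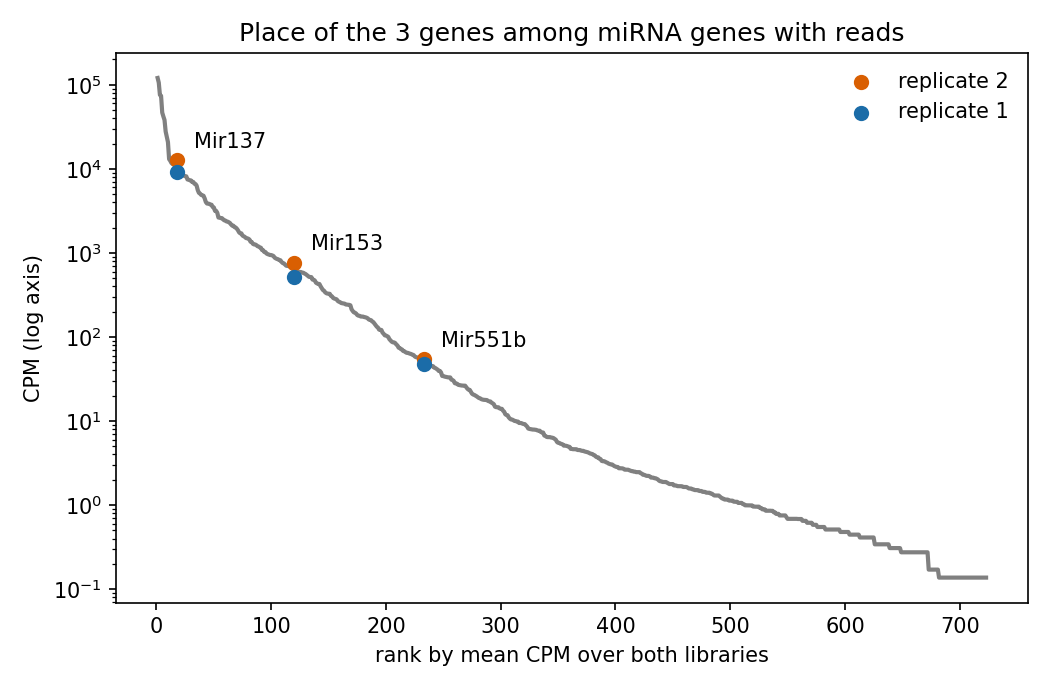
CPM on a log axis against rank by mean CPM for miRNA genes with reads (grey line: mean of both libraries), with replicate 2 (orange) and replicate 1 (blue) shown for Mir137, Mir153 and Mir551b. The genes sit at ranks 18, 120 and 233, and their levels span more than 2 powers of 10, far more than the gap between the libraries of any of them.

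The order Mir137, Mir153, Mir551b held in both libraries. Reads of Mir137 were 16.6 times those of Mir153 in replicate 2 and 17.8 times in replicate 1. They were 231 and 192 times those of Mir551b, and Mir153 had 13.9 and 10.8 times the reads of Mir551b, again in replicates 2 and 1. The reads are of mature length and come from hairpins of 69 to 98 bases. With mean CPM divided by hairpin length the ranks were 15, 111 and 238. The lengths differ far less than the levels, so this division could not have changed the order of the 3 genes. Mir137 made up 93.9% of the summed reads of the 3 genes in replicate 2 and 94.2% in replicate 1. In all, the share of the 3 genes in the assigned reads was 1.34% (replicate 2) and 0.967% (replicate 1).

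The neuron list used for comparison holds 11 further genes, whose mature sequences come from several hairpins. Of these, 8 had at least 10 reads in each library, as did all 3 of the single-copy genes. Mir128-1, of a miRNA known to dampen neuronal excitability, was the most abundant of the list, at 7474 ± 4452 CPM (SD, n = 2), and no gene of the list had a higher mean than Mir137. Mir138-1 (4780 ± 1808 CPM) and Mir138-2 (3160 ± 1229 CPM), hairpins of a miRNA known from dendritic spines, also stood between Mir137 and Mir153, together with Mir128-2 at 1238 ± 548 CPM. Mir129-2, at 694 ± 117 CPM, was within the spread of Mir153.

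Below Mir153 were Mir218-2 (173 ± 36.9 CPM), Mir129-1 (94.04 ± 35.4 CPM) and Mir218-1 (31.1 ± 19.3 CPM), the last of which lay below Mir551b in both libraries. The Mir124a hairpins, whose miRNA is a standard marker of neurons, were at 8, 0 and 1 reads (replicate 2) and at 8, 4 and 4 reads (replicate 1). Reads with several places were not assigned, so the levels of these 11 genes are uncertain as single genes, and their order against Mir137, Mir153 and Mir551b describes assigned reads only. The 11 genes together summed to 19182 CPM in replicate 2 and 16114 CPM in replicate 1.

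**Figure D3:**
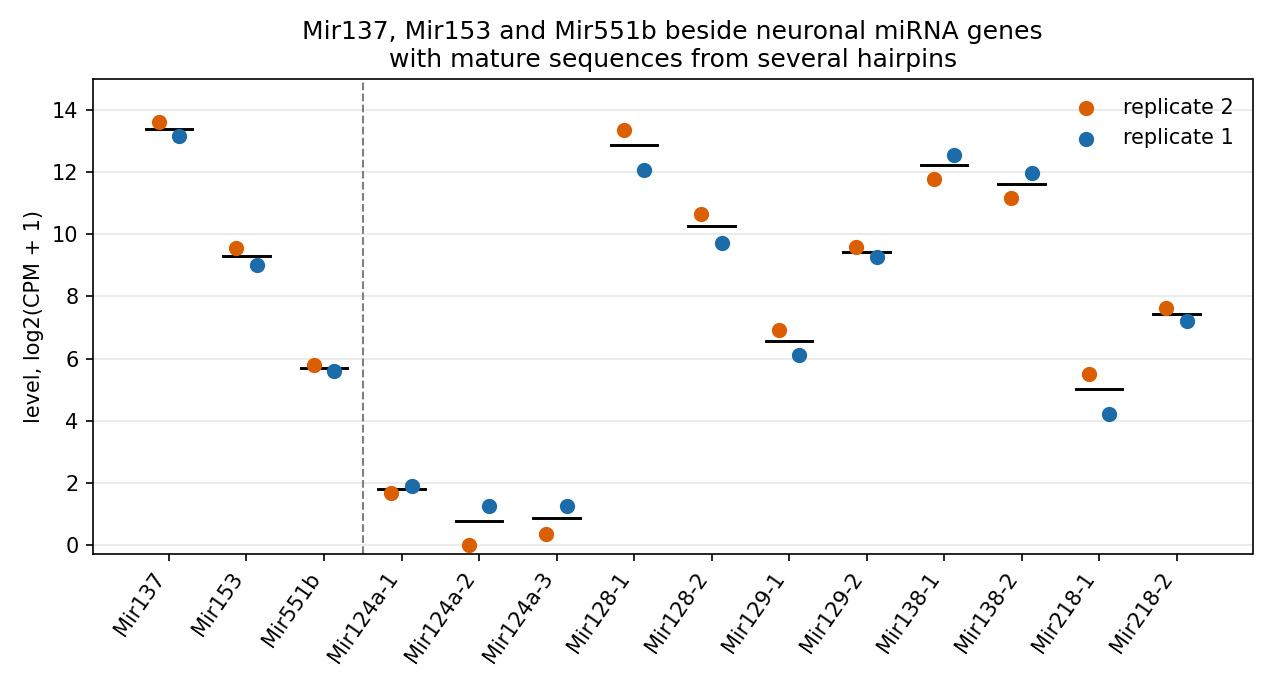
Level as log2(CPM + 1) in replicate 2 (orange) and replicate 1 (blue), with the level of the mean CPM as a black bar, for Mir137, Mir153 and Mir551b (left of the dashed line) and 11 neuronal miRNA genes with mature sequences from several hairpins. Mir137 is highest, and the Mir124a hairpins lie at 8 reads or fewer.

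All 3 single-copy genes had a higher value in replicate 2 than in replicate 1. By value alone, so had 29 of the 52 genes averaging 10000 reads or more and 51 of the 100 averaging 1000 to under 10000. Of the 106 averaging 100 to under 1000 reads, 59 had. Mir137 was 1.39-fold higher in replicate 2 (exact 95% interval 1.37 to 1.41, log2 ratio 0.47). Mir153 was 1.48-fold higher (1.39 to 1.58, log2 ratio 0.57), with a p of 3.75e-35 after Benjamini-Hochberg adjustment over 474 genes. The test was an exact binomial on the reads, two-sided. The adjusted p of Mir137 by this test was too small for the software to hold. Mir551b had a ratio of 1.15 (0.922 to 1.44, log2 ratio 0.20) and was not called, with an exact p of 0.209 and an adjusted p of 0.283. At its depth the interval left room both for no difference and for a ratio of up to 1.44. The test compares these libraries and not conditions, since either side is 1 library.

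A call by this test is common here. Of the 3 genes, 2 were called, both higher in replicate 2. Over all tested genes 58% were called in either direction, 31.6% as higher in replicate 2 and 26.4% as higher in replicate 1. The share rises with depth. Of the 52 genes averaging 10000 reads or more, like Mir137, 96.2% were called, 51.9% as higher in replicate 2. For the 100 genes averaging 1000 to under 10000 reads, like Mir153, the shares were 88% and 44%. For the 106 genes averaging 100 to under 1000 reads, like Mir551b, they were 70.8% and 40.6%. A call in either direction is thus what most genes of the depth of Mir137 and Mir153 received. The call they had, higher in replicate 2, went to 51.9% and 44% of these genes.

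The sizes of the differences were also set beside genes of like depth. The log2 ratios of the deepest of these groups had quartiles of -0.28 and 0.27, so the 0.47 of Mir137 lay above the upper one. The quartiles of the next group were -0.26 and 0.35, and the 0.57 of Mir153 likewise lay above. The 0.20 of Mir551b lay between the quartiles of its own group, -0.29 and 0.50. Taken without sign, and over the 295 genes averaging at least 50 reads, 66.4% had a smaller log2 ratio than Mir153 and 31.2% a smaller one than Mir551b. Mir137 lay between the pair, above 60% of these genes. The median log2 ratio was 0.47 over the 3 members and 0.04 over the 474 genes tested.

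**Figure D4:**
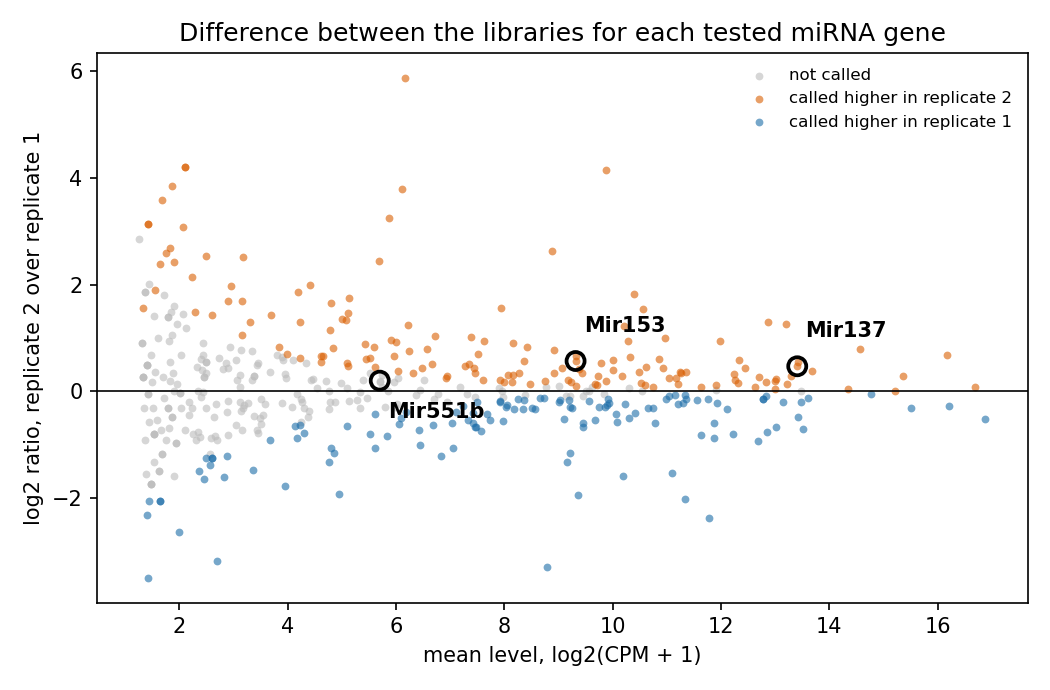
Log2 ratio of replicate 2 over replicate 1 against mean level, log2(CPM + 1), for each of the 474 tested miRNA genes, coloured by the exact binomial call. Mir137 (0.47) and Mir153 (0.57) lie within the cloud of genes called higher in replicate 2, and Mir551b (0.20) among genes not called.

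The 3 genes were compared with each other for how far they moved between the libraries. The ratio of Mir137 to Mir153 reads in replicate 2 was 0.934 times that in replicate 1 (95% interval 0.875 to 0.997). For Mir137 to Mir551b it was 1.20 times (0.963 to 1.505), and for Mir153 to Mir551b 1.29 times (1.02 to 1.63). By Fisher's exact test, two-sided, the p-values adjusted over these 3 pairs were 0.0593, 0.101 and 0.0593. None passed 0.05 after adjustment, while the intervals, which are not adjusted, excluded 1 for Mir137 to Mir153 and for Mir153 to Mir551b. The intervals leave room for Mir153 to have moved from 1.02-fold up to 1.63-fold more than Mir551b. The ratios within a library do not depend on the scaling between libraries.

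The other neuronal genes were called in both directions. Of the 11 genes, 9 had enough reads to test, 6 were called as higher in replicate 2 and 2 the other way. Among all genes averaging 100 reads or more, as 8 of the 9 do, 70.8% to 96.2% were called in either direction, by depth group. The share called in either direction is thus not particular to the 9 genes. As higher in replicate 2, 40.6% to 51.9% of genes of such depth were called, by depth group. The median log2 ratio of the 9 was 0.44, beside 0.04 over all 474 genes tested. Those called higher in replicate 2 were both Mir128 hairpins (2.46-fold for Mir128-1 and 1.91-fold for Mir128-2), both Mir129 hairpins (1.73-fold for Mir129-1 and 1.27-fold for Mir129-2) and both Mir218 hairpins (2.57-fold for Mir218-1 and 1.36-fold for Mir218-2). Mir138-1 and Mir138-2 were called the other way, at 0.578 and 0.569 times the level of replicate 1. Mir124a-1, with 8 reads in each library, was not called. Reads with several places were 45.8% of reads in replicate 2 and 38.9% in replicate 1 and were not assigned. The ratios of these genes, which share mature sequences, thus describe assigned reads only.

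Levels of marker lists of other cell types are given for the same libraries, and their part in the ratios above was not tested. Their calls are to be read beside the 58% called over all genes tested. By direction this was 31.6% as higher in replicate 2 and 26.4% as higher in replicate 1. Of genes averaging 100 reads or more, 70.8% to 96.2% were called in either direction, by depth group. All 7 astrocyte genes were called higher in replicate 1, with summed levels of 12628 CPM in replicate 2 and 18147 CPM in replicate 1. So were all 3 red blood cell genes, with sums of 340 and 1176 CPM. The 5 choroid plexus and ciliated cell genes summed to 2661 CPM in replicate 2 and 1147 CPM in replicate 1, with 2 called higher in replicate 2, 1 called higher in replicate 1, and Mir211 at 4 and 3 reads. Mir204 alone was at 2101 CPM in replicate 2 and 593 CPM in replicate 1, and the other 4 genes summed to 560 CPM in replicate 2 and 554 CPM in replicate 1. The 4 oligodendrocyte genes summed to 10814 and 13366 CPM (1 gene called higher in replicate 2, 2 genes lower). Most of both sums was Mir23a, the gene called higher, at 8278 CPM in replicate 2 and 8014 CPM in replicate 1. Those called lower were Mir219a-2 (1127 and 3229 CPM) and Mir338 (1400 and 2112 CPM). Mir219a-1 (9.88 and 10.9 CPM) was not called. The 3 endothelial and mural genes summed to 15579 and 19436 CPM (2 higher, 1 lower). The 5 microglia and leukocyte genes summed to 1881 and 1589 CPM (2 higher, 1 lower). None of these lists is specific to a cell type in counts per gene.

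Mir448, which shares bases 2 to 7 with miR-153-3p, is shown for the comparison of their sequences, with the shared bases in capitals here and, for miR-153-3p above, among the capitals. It lies on the X chromosome.
mmu-miR-448-3p: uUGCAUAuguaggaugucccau

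Mir448 had 380 reads (104 CPM) in replicate 2 and 32 reads (10.9 CPM) in replicate 1, below Mir153 in both libraries. Its ratio of 9.54 (6.64 to 14.2) was far larger than the 1.48 of Mir153, with no overlap of the intervals. Mir6335, the other gene with these bases, had 0 reads in both libraries. Of the 3 hairpins with these seed bases, Mir153 thus had the most assigned reads in both libraries.

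**Figure D5:**
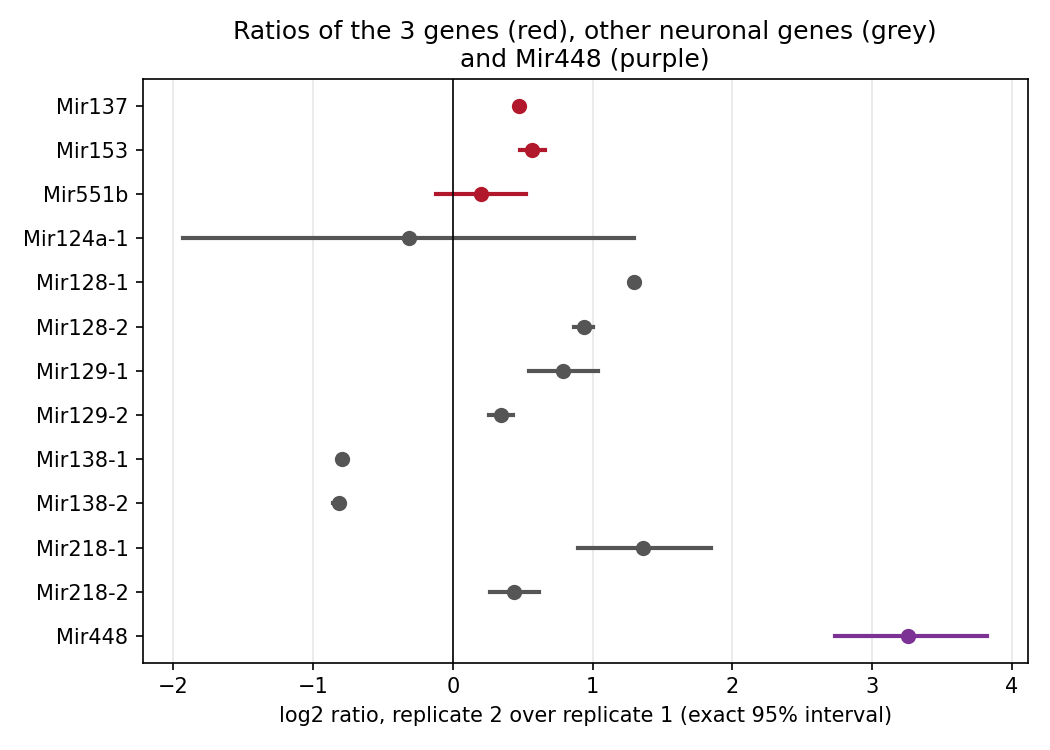
Log2 ratio of replicate 2 over replicate 1 with its exact 95% interval for Mir137, Mir153 and Mir551b (red), the 9 tested neuronal genes with several hairpins (grey) and Mir448 (purple). Intervals of Mir137 and Mir153 lie above 0 and that of Mir551b includes 0. The Mir138 hairpins lie below 0, and Mir448, at 9.54-fold, lies far to the right.

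The genes most like each member were found by distance in log2(CPM + 1) over the 2 libraries. Closest to Mir137 was Mir433, at a distance of 0.06, followed by Mir324 (0.19) and Mir330 (0.35). Closest to Mir153 were Mir101b (0.06), Mir1249 (0.16) and the neuronal Mir129-2 (0.25). Closest to Mir551b were Mir7047 (0.02), Mir6944 (0.09) and Mir1193 (0.11). With 2 libraries, these distances describe like levels in these samples.

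Reads on the opposite strand were absent from all 3 genes. Mir137, Mir153 and Mir551b had 0 antisense reads in both libraries, and their counts without strand equalled their sense counts. The gene Gm5441 opposite Mir153 thus had no reads at that place in either library.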

How the data were processed

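Small RNA libraries of mouse hippocampus (insert size under 30 bases, per the labels) were counted per miRNA gene. The deposited files hold raw counts of reads in 3 columns, read as without strand, sense and antisense. The deposited notes name the assembly mm10 and annotation M21; an aligner is not given in the sources used here. Reads in the 4 rows that name no gene were 65.3% (replicate 2) and 69.5% (replicate 1) of the total and were left out of library sizes and tests.

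CPM are sense counts over the library's miRNA gene total. For log2 levels a pseudocount of 1 CPM was added. Depth per library is given with the results, where 1 read is 0.274 CPM in replicate 2 and 0.342 CPM in replicate 1. All 2202 identifiers matched GENCODE M21. With 1 group, no condition could be tested. Each gene's reads were set against the library totals in an exact binomial test (two-sided). The test was checked on simulated counts that held counting error only. That check cannot speak to spread between libraries beyond counting error. P-values were adjusted by Benjamini-Hochberg over genes with a summed count of at least 10, with 0.05 as the threshold. Fisher's exact tests between members were added after the data were seen. The members and lists were chosen with earlier results of these data known. Named were the 3 genes, 11 other genes of the neuron list, hosts, nearest annotated miRNA genes, genes that share seed bases, and the 3 genes of most similar level. Mir666, Mirlet7g, Mir204, Mir211, Mir23a, Mir219a-1, Mir219a-2 and Mir338 were named after their values were seen. Other marker genes of other cell types appear as list sums and counts of calls. Alternatives were counts without strand, TMM scaling (edgeR 4.0.16), DESeq2 1.42.0 size factors, other totals and other filters. Python 3.11.15, scipy 1.17.1, R 4.3.3 and RNAfold 2.7.2 were used.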

Additional observations from a re-analysis of the deposited data

How the results depend on the processing

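The log2 ratios of Mir137 and Mir153 kept their direction and their call under all 7 alternatives, from 0.40 to 0.66 for Mir137 and from 0.50 to 0.76 for Mir153. By construction, each alternative moved all 3 ratios by a common amount or not at all, so these are not separate checks. Relative to the median shift of the tested genes, Mir137 stayed at 0.47 and Mir153 at 0.57. Mir551b stayed above 0 (0.13 to 0.39, adjusted p from 0.0272 to 0.536), and was called only with all reads in the table as the total (0.39). That total moved every tested gene, and so their median, by 0.19 on the log2 scale, by construction, which leaves 0.20 for Mir551b relative to the shift. The same total lowered the levels to 3584, 210 and 16.7 CPM for Mir137, Mir153 and Mir551b, by construction, since the divisor is about 3 times larger. A total without the most abundant gene, Mirlet7g, moved Mir551b to 57.96 CPM. Other scalings moved no level by more than the spread between libraries. Without either replicate in turn, the levels ranged from 9112 to 12631 CPM for Mir137, 513 to 761 CPM for Mir153 and 47.5 to 54.6 CPM for Mir551b. No ratio is left without a library. The number of genes called ranged from 214 to 273 against 275, with the main split of 150 higher in replicate 2 and 125 in replicate 1 turning to 194 and 73 with all reads as the total. The split was 133 against 134 under TMM and 126 against 142 without the most abundant gene, so which side held more genes changed with scaling. No paired analysis was possible because there is 1 group. Depth limits Mir551b, whose interval at 199 and 139 reads spans 0.922 to 1.44.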
